A study of Homo sapiens with 6 samples.

Results

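Most human genes are transcribed with introns that the spliceosome must remove, but some genes consist of a single exon, so that their transcripts can leave the nucleus without splicing. A list of 40 such genes outside the histones, drawn up from general knowledge of gene structure and with exon numbers not checked here, was followed after siRNA treatment against SLU7. SLU7 is a splicing factor that helps to choose the 3′ splice site in the second catalytic step, and the comparison asks whether transcripts that need no splicing behave differently from other genes. A gene counted as measured when the platform annotation named it alone on a transcript cluster, the array's unit for a whole gene, built from its exon probes. Of the 40 genes, 37 were measured, among 15949 genes with such a cluster and 18708 clusters in all, and each of the 37 had exactly 1 cluster. ZXDA and ZXDB, X-linked zinc finger genes, shared 1 cluster annotated with both symbols and therefore got no value of their own, and MC1R, the melanocortin receptor of pigment cells, was matched by no cluster in the annotation used here.

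The cells were PLC/PRF/5, an established human hepatocellular carcinoma line, and total RNA was taken 48 h after transfection. The control group (3 arrays) received an irrelevant siRNA (siGL) and the knockdown group (3 arrays) received siRNAs against SLU7. Both groups grew in DMEM with FCS and were transfected with Lipofectamine RNAiMAX. Expression was read with the Affymetrix Human Exon 1.0 ST array, and values are log2 expression units per cluster, so that a log2 difference of 1 is a doubling. The siRNA names in the sample labels end in digits that match the replicate numbers (siGL1, siSlu71 and so on) and were read as such; whether the replicates of a group received different siRNAs is not settled by them. The labels do not say whether the replicates came from separate cultures, so each p-value reflects the scatter among these arrays alone, and that scatter may be technical.

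The listed genes serve different kinds of work. JUN, JUNB and JUND are subunits of the transcription factor AP-1. JUN and JUNB belong, with IER2, IER5 and CEBPD, to genes that cells switch on soon after a stimulus. A gene without introns has no splicing step to delay that response. JUND is grouped with them here as an AP-1 subunit. The SOX, FOX and POU3F families and BHLHE22 are DNA-binding regulators of development, many of them acting in the nervous system, and SOX4 and FOXQ1 are also known from liver tumours. A further group keeps every cell running: enzymes of glycan and membrane anchor synthesis, ribosome assembly factors, a factor of tRNA modification and a subunit of the general transcription machinery.

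SLU7 itself stood at 7.89, 7.01 and 7.24 log2 units in the control arrays and at 5.84, 5.58 and 6.21 with SLU7 siRNA. Its difference was -1.51 ± 0.31 (SE) log2 units, with a limma adjusted p of 0.0783 over all clusters. The first principal component set 1 array of each group, control replicate 2 and SLU7 replicate 1, away from the remaining 4, and results are therefore also given for this pair and for the other 4. Of the hepatocyte markers, 10 were measured and 6 lay above the median cluster, with TF (transferrin) at 12.06 and APOA1 at 11.08 log2 units, whereas ALB (albumin) at 3.47 and SERPINA1 at 4.82 lay below the lower quartile of 4.92. Of 14 markers of blood, endothelial, fibroblast and neural cells, 4 lay above the median cluster (the neural markers SNAP25 at 8.64 and GFAP at 8.47, the muscle marker DES at 7.54 and the endothelial marker PECAM1 at 6.94) and 5 below the lower quartile, the lowest being the leukocyte marker PTPRC at 2.09. The log2 values of the 10 hepatocyte markers summed to 82.4 to 83.8 in control arrays and 75.4 to 78.3 with SLU7 siRNA. Those of the 14 other markers summed to 76.4 to 78.1 and 71.5 to 75.4. Of these 14, TUBB3 (-2.07 log2 units) and SNAP25 (-1.43) had the lowest differences, and PTPRC, CD3E, COL1A1, COL3A1 and DES were above 0. The rest lay between -0.29 (CDH5) and -0.09 (CD14). The part of these shifts in the results on the genes without introns was not tested.

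As a group, the genes without introns lay where genes in general lay. Of the 37, 20 were higher and 17 lower with SLU7 siRNA, where 50.5% of all clusters were above 0. Their median log2 difference was 0.04, beside -0.0035 over the 15912 other genes, and their quartiles were -0.17 and 0.30, beside -0.27 and 0.29 for all clusters. No member passed a limma adjusted p of 0.05 (Benjamini-Hochberg over all clusters), where 0.433% of clusters did (0.134% higher and 0.299% lower), a share under which a list of this size holds few or none. At an unadjusted limma p under 0.05 there were 3 of the 37 members, all higher (TAF7, B3GALT6 and FOXE1). Of the 18708 clusters, 1226 were higher and 1224 lower at that p (13.1% in either direction). The spread between arrays of 1 group was also like that of other genes, with a median residual SD of 0.38 log2 units in both.

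Values of the 3 knockdown arrays did not overlap those of the 3 control arrays in 4 members: TAF7, B3GALT6, IMP3 and FOXE1. All 4 were higher with SLU7 siRNA and none was lower, which is 10.8% of the 37 higher, while 9.64% of all clusters were apart and higher and 9.21% apart and lower (18.9% in either direction). The share apart and higher was near that of all clusters. The text follows these 4 first, then the role groups.

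**Figure D1:**
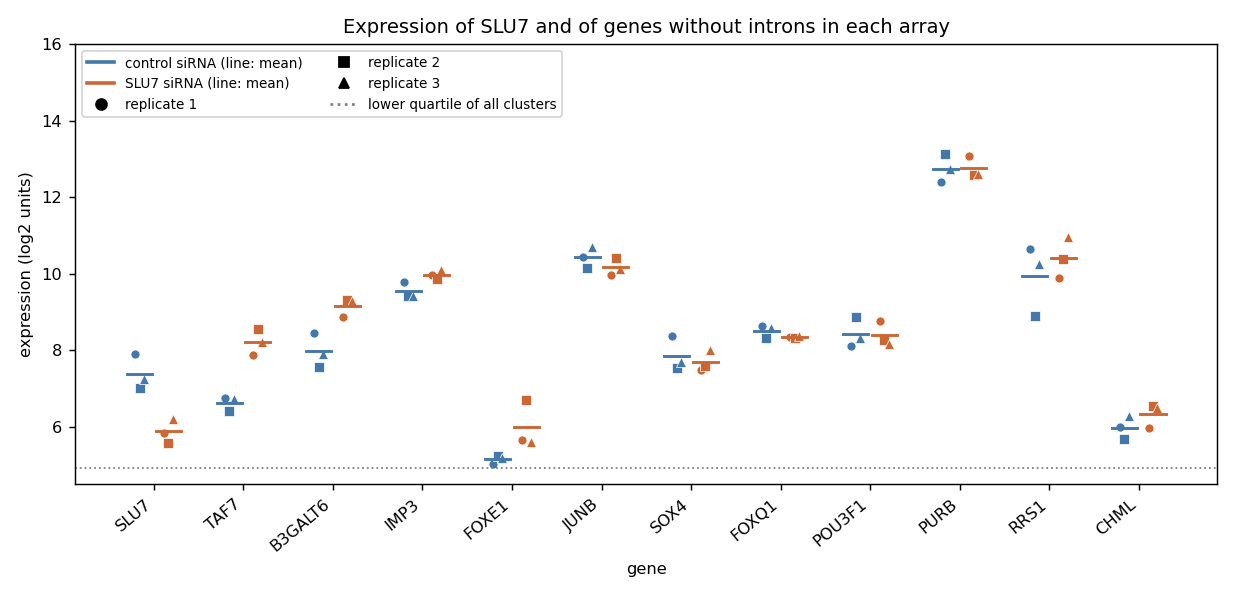
Expression in log2 units (vertical axis) of SLU7 and of 11 genes without introns (horizontal axis) in each of 3 control siRNA arrays (blue) and 3 SLU7 siRNA arrays (orange), with replicate number by symbol, group means as lines and the lower quartile of all clusters as a dotted line. TAF7, B3GALT6, IMP3 and FOXE1 have all SLU7 siRNA arrays above all control arrays, while JUNB, SOX4, FOXQ1, POU3F1, PURB, RRS1 and CHML overlap.

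TAF7, a subunit of the general transcription factor TFIID that holds back the acetyltransferase activity of its partner TAF1, had the largest difference of the 37. It stood at 6.74, 6.41 and 6.73 log2 units in the control arrays and at 7.86, 8.56 and 8.22 with SLU7 siRNA. The lowest knockdown array was 1.12 log2 units above the highest control array, more than the whole range within either group. The difference of 1.59 ± 0.27 (SE) log2 units, 3.0-fold with a 95% interval of 1.94 to 4.64, had a limma adjusted p of 0.0529, just outside the threshold. It was exceeded by 0.449% of all clusters. The two-sided exact permutation p was 0.1 for TAF7, B3GALT6, IMP3 and FOXE1, which is as low as 3 against 3 arrays allow. Any gene whose groups do not overlap gets this value, so it only restates how these 4 were chosen. TAF7 was 1.45 log2 units higher within the pair of arrays that stand apart and 1.65 higher within the other 4. It passed the limma test in 4 of the 15 alternative analyses: without dim clusters (adjusted p = 0.0243), with an intensity trend (adjusted p = 0.0136), with array weights (adjusted p = 0.0153) and with the array split as a block (adjusted p = 0.0234). Array weights were lowest for the pair of arrays that the split sets apart, so these settings are not independent. Over all 15 the adjusted p ran from 0.0136 to 0.211. Among TFIID subunits with introns, singled out after their values were seen, the log2 difference was 0.06 ± 0.38 (SE) for TAF1 and -0.26 ± 0.29 for TAF10, and -0.22 ± 0.30 for TAF7L, the paralog of TAF7 known from male germ cells.

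B3GALT6, the galactosyltransferase that adds a sugar of the linker joining glycosaminoglycan chains to proteoglycans, stood at 8.46, 7.56 and 7.89 log2 units in control arrays and at 8.85, 9.30 and 9.29 with SLU7 siRNA. Control replicate 1 came within 0.40 log2 units of the lowest knockdown array. The difference was 1.18 ± 0.31 (SE) log2 units, 2.26-fold (95% interval 1.39 to 3.66), and its limma adjusted p was 0.138. The adjusted p was 0.0449 with array weights and 0.0405 with a term for the array split, and ran from 0.0405 to 0.379 over all 15 alternatives. Both settings bear on control replicate 2 and SLU7 replicate 1, which had the lowest weights (0.40 and 0.51). In them 575 and 783 clusters passed, where the main analysis called 81. The pair of arrays that stand apart gave 1.29 and the other 4 arrays 1.12. Other enzymes of the same linker, whose genes have introns, also singled out afterwards, had differences below 0: -0.28 log2 units for XYLT2, -0.26 for B4GALT7, -0.17 for B3GAT3 and -0.04 for XYLT1, and none passed.

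IMP3, a protein of the U3 small nucleolar ribonucleoprotein that processes ribosomal RNA, stood at 9.79, 9.40 and 9.41 log2 units in control arrays and at 9.95, 9.85 and 10.08 with SLU7 siRNA. Its groups were separated by only 0.066 log2 units. The difference of 0.43 ± 0.25 (SE), or 1.35-fold (95% interval 0.912 to 1.99), had a limma adjusted p of 0.541. FOXE1, a forkhead factor of thyroid development, stood at 5.01, 5.22 and 5.19 log2 units in control arrays and at 5.64, 6.69 and 5.61 with SLU7 siRNA. Its difference of 0.84 ± 0.34 (SE) log2 units, 1.78-fold (95% interval 1.05 to 3.03), had a limma adjusted p of 0.335. The difference leaned on SLU7 replicate 2, without which it was 0.48. The mean level of FOXE1 lay above that of 33.7% of clusters. Without detection calls, a level this low cannot be told apart from background signal.

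The 250 bases before the annotated start of these 4 genes, and of JUNB for contrast with an immediate early gene, are shown for description only. They come from RefSeq on GRCh38.p14: TAF7 at chr5:141320785-141321034 (minus strand), B3GALT6 at chr1:1231987-1232236 (plus), IMP3 at chr15:75640225-75640474 (minus), FOXE1 at chr9:97852976-97853225 (plus) and JUNB at chr19:12791236-12791485 (plus). Each runs 5′ to 3′ along its gene and ends at the last base before the start. Capitals mark matches on either strand to the GC box GGGCGG, the CCAAT box CCAAT, the ETS core CCGGAA and the TATA box TATAAA; the AP-1 motif TGACTCA and the cyclic AMP response element TGACGTCA were also searched. No match overlapped another in these 5 windows.
TAF7: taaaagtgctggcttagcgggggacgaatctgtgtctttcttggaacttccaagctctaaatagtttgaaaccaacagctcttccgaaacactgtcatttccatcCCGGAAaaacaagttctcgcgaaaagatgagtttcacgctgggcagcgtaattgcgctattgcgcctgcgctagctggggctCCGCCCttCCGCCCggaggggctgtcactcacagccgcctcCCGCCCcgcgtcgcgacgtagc
B3GALT6: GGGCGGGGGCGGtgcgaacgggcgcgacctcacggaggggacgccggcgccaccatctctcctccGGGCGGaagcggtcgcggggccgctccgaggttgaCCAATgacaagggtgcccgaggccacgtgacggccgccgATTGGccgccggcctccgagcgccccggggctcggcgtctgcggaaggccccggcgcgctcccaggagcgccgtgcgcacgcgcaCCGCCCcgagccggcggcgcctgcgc
IMP3: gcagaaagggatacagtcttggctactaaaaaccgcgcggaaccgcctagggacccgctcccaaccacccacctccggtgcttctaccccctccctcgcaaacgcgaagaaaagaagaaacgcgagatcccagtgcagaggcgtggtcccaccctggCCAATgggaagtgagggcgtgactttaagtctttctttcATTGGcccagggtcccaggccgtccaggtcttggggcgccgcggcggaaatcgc
FOXE1: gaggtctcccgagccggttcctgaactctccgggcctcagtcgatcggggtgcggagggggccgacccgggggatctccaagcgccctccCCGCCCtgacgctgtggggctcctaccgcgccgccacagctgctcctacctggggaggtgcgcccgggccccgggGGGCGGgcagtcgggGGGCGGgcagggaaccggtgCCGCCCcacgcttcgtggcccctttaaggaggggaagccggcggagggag
JUNB: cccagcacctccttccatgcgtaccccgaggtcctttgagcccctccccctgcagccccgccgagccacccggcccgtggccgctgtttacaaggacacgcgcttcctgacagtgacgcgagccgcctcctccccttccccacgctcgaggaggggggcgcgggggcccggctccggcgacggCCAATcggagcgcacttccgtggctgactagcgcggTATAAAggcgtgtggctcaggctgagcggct

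Of the 5, only JUNB held the TATA box letters, from 31 to 26 bases before the start, and it also held 1 CCAAT. TAF7 held 3 GC boxes and 1 ETS core and no CCAAT, B3GALT6 held 4 GC boxes and 2 CCAAT, IMP3 held 2 CCAAT and no GC box, and FOXE1 held 4 GC boxes alone. No motif was found in all 4 genes that were higher in every knockdown array. GC boxes were shared by TAF7, B3GALT6 and FOXE1, and CCAAT by B3GALT6 and IMP3. Windows were matched for 30 of the 37 measured members and for 12747 genes on the array (SOX11, SOX14, FOXC2, BHLHE22, CEBPD, PURA and RRS1 had none in the table). A GC box was found in 73.3% of the 30 member windows, in 58.6% of those of genes on the array and in 42.6% of all 35116 windows. CCAAT was found in 60.0%, 34.8% and 32%, the ETS core in 26.7%, 20.4% and 14.5%, and the TATA box in 6.67% (JUNB and SOX21), 8.43% and 10.7%. The AP-1 motif was found in 3.33% (PURB), 3.08% and 4.2%, and the cyclic AMP response element in 10.0% (JUND, FOXD3 and PURB), 2.39% and 1.65%. The median G and C content was 68.8% in the member windows, 62.8% in those of genes on the array and 58.0% in all.

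Among the AP-1 and other immediate early genes, 4 of 6 were above 0 and 2 below, with a median log2 difference of 0.11, and none passed. JUNB, the AP-1 subunit that often restrains growth, stood at 10.44, 10.14 and 10.70 log2 units in control arrays and at 9.97, 10.40 and 10.12 with SLU7 siRNA. Its arrays overlapped, and the difference of -0.26 ± 0.27 (SE) had a 95% interval of -0.87 to 0.34. The partners pointed the other way by as little: JUN differed by 0.24 ± 0.29 log2 units and JUND by 0.22 ± 0.29. JUN was level in 5 arrays (7.0 to 7.19) and higher in SLU7 replicate 3 (7.85). IER2, a nuclear immediate early protein, differed by 0.04 ± 0.26 log2 units and IER5, which acts on the heat shock factor HSF1, by 0.19 ± 0.28. CEBPD, the C/EBP factor of the acute phase response, had the third lowest difference, with values of 7.11, 7.24 and 7.40 log2 units in control arrays and 7.39, 6.93 and 6.35 with SLU7 siRNA. Only SLU7 replicates 2 and 3 lay below the controls, and the difference was -0.36 ± 0.31 (SE) log2 units, 0.15 within the pair and -0.62 within the other 4 arrays.

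Immediate early genes with introns spread more widely. Of 27 listed, 26 were measured, with a median log2 difference of 0.12 (14 above 0 and 12 below). Of the 26, 6 differed by over 1 log2 unit in either direction, as did 6.91% of all clusters. None of the 6 AP-1 and other immediate early genes without introns did. The difference between the lists was not tested. ZFP36, which marks AU-rich messenger RNAs for decay, was the only 1 of the 26 to pass: it fell by 2.49 ± 0.26 (SE) log2 units, 5.60-fold, with a limma adjusted p of 0.0316. It stood at 9.53, 9.30 and 8.97 log2 units in control arrays and 6.62, 6.97 and 6.74 with SLU7 siRNA. None of the 26 passed when any 1 array was left out, nor did any cluster.

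The SOX genes, regulators with an HMG box that set neural and progenitor states, divided evenly, with 4 of 8 above 0 and a median log2 difference of -0.06. The differences ran from -0.21 for SOX3 to 0.30 for SOX21, and all 8 overlapped between groups. SOX4 stood at 8.37, 7.52 and 7.68 log2 units in control arrays and 7.47, 7.59 and 7.99 with SLU7 siRNA, a difference of -0.17 ± 0.31 (SE). SOX2, a factor of pluripotent and neural stem cells, lay below the lower quartile of all clusters, at 2.74 to 4.15 log2 units over the 6 arrays, and differed by 0.11 ± 0.39. SOX1, SOX11 and SOX14, factors of neural progenitors and neurons, differed by -0.17, -0.19 and 0.09 log2 units, and SOX12, of the same subgroup as SOX4 and SOX11, by 0.05.

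Of the FOX genes, 7 of 8 were below 0, all but FOXE1, with a median log2 difference of -0.14, and none passed. With 1 array left out, 5 to 7 of the 8 were below 0, and FOXC1, FOXC2 and FOXD3 changed sign at least once. The median was -0.05 in the pair of arrays that stand apart and -0.17 in the other 4. FOXQ1, a forkhead factor linked to epithelial plasticity, was close in all arrays, at 8.63, 8.31 and 8.57 log2 units with control siRNA and 8.35, 8.31 and 8.36 with SLU7 siRNA. FOXL2, a factor of ovarian granulosa cells, had the lowest difference of all 37 members: 6.39, 6.72 and 6.01 log2 units in control arrays and 6.12, 5.96 and 5.21 with SLU7 siRNA, a difference of -0.61 ± 0.33 (SE) with a limma adjusted p of 0.503. SLU7 replicate 1 lay above control replicate 3, so the groups overlapped. FOXD2 came next, at 6.59, 6.75 and 6.31 against 6.68, 6.06 and 5.59 log2 units, a difference of -0.44 ± 0.32. FOXD1, of kidney stroma, differed by -0.29 log2 units and FOXC2 and FOXC1, of mesoderm and vessels, by -0.12 and -0.06. FOXD3, of the neural crest, differed by -0.02, and its 6 arrays lay between 7.45 and 7.68.

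The POU3F genes, neural factors that bind octamer motifs, and BHLHE22 gave differences from -0.23 to 0.07 log2 units, with a median of -0.04. POU3F1 stood at 8.11, 8.88 and 8.31 log2 units in control arrays and at 8.76, 8.27 and 8.15 with SLU7 siRNA, a difference of -0.04 ± 0.30 (SE). Its 2 highest arrays were control replicate 2 and SLU7 replicate 1. POU3F3 differed by -0.23 ± 0.24 and POU3F2 by 0.07 ± 0.52, the latter with a range of 1.47 log2 units among control arrays. POU3F4 and BHLHE22, a repressor of neuron development, lay below the lower quartile of all clusters. Without detection calls, a steady level of such neural genes cannot be told apart from background signal here. Relatives with introns in the SOX, FOX and POU families, 38 of 44 measured, had a median of 0.05 log2 units with 21 above 0. None passed, the highest difference being that of SOX15 (0.86 log2 units) and the lowest that of SOX9, a biliary and progenitor factor (-0.95).

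**Figure D2:**
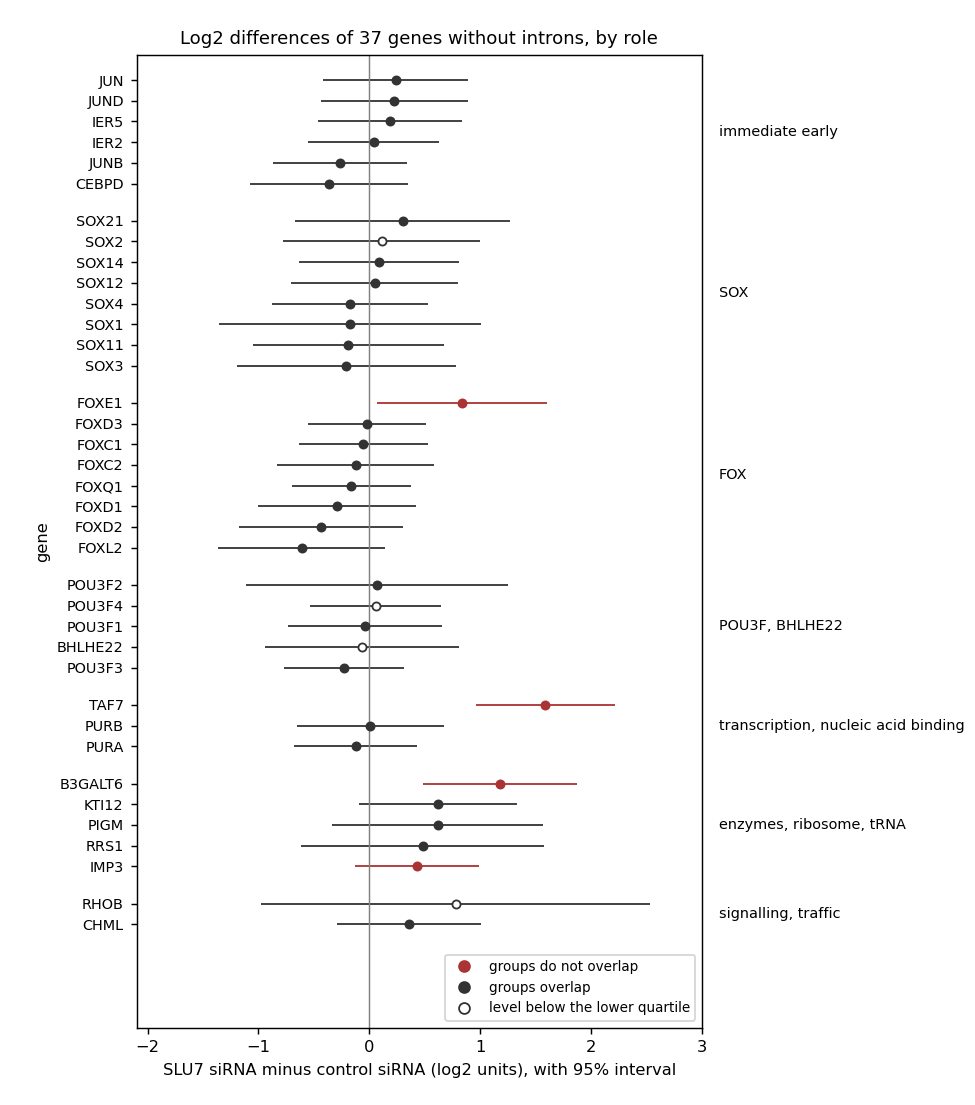
Log2 difference (SLU7 siRNA minus control siRNA, horizontal axis) with its 95% interval from limma for each of the 37 measured genes without introns (vertical axis), grouped by role, with red for genes whose groups do not overlap and open circles for genes below the lower quartile of level. The intervals of 3 genes (TAF7, B3GALT6 and FOXE1) lie wholly above 0, and all 5 genes of the enzyme, ribosome and tRNA group are above 0.

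All 5 measured enzymes and ribosome or tRNA factors were above 0, with a median log2 difference of 0.62, but none passed. Without control replicate 2, 4 of the 5 were above 0 and the median was 0.36, and it was 0.98 in the pair of arrays that stand apart and 0.38 in the other 4. Beside B3GALT6 and IMP3, RRS1, which brings 5S ribosomal RNA into the large ribosomal subunit, stood at 10.65, 8.90 and 10.24 log2 units in control arrays and 9.88, 10.39 and 10.96 with SLU7 siRNA. Its difference of 0.48 ± 0.48 (SE) rested on the low control replicate 2, without which it was -0.038. PIGM, the mannosyltransferase that begins the sugar chain of GPI anchors, had the same low array (5.91 against 6.94 and 7.48 in the other controls). It differed by 0.62 ± 0.42 log2 units, and by 0.18 without that array. KTI12, a partner of the Elongator complex that modifies tRNA, differed by 0.62 ± 0.31 log2 units (adjusted p = 0.467 by limma), with all 3 knockdown arrays (6.69, 6.84 and 7.37) above 2 of the 3 controls (6.40, 6.72 and 5.92). It differed by -0.04 within the pair of arrays that stand apart and by 0.94 within the other 4.

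Partners of these factors with introns, singled out after their values were seen, were mixed. IMP4 and MPHOSPH10, which form a complex with IMP3, differed by 0.46 ± 0.33 and 0.38 ± 0.58 (SE) log2 units, and RPF2, which works with RRS1, by 0.37 ± 0.42. The measured Elongator subunits ran from -0.45 (ELP4) to 0.47 (ELP6). In the whole list of relatives and partners with introns, 25 of 27 were measured, with 10 above 0 and 15 below, a median of -0.12 log2 units and none passing. Its lowest difference was that of BHLHE40, a circadian and hypoxia-responsive repressor (-1.85 ± 0.60), and its highest that of ELP6. The 16 members outside the SOX, FOX and POU3F families and BHLHE22 had 13 above 0 and a median of 0.30 log2 units, and the 21 within them had 7 above 0 and a median of -0.07. That division was not among the role groups set beforehand. It joins role groups whose medians were all below 0 and sets them against role groups whose medians were all above 0. The contrast between its sides thus partly restates those medians, and it was not tested.

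PURA and PURB, single-strand DNA and RNA binding proteins, differed by -0.12 ± 0.24 and 0.01 ± 0.29 (SE) log2 units. PURB stood at 12.38, 13.11 and 12.74 log2 units in control arrays and 13.08, 12.59 and 12.59 with SLU7 siRNA. Of the signalling and traffic genes, CHML, a Rab escort protein needed for lipid tailing of Rab GTPases, stood at 5.99, 5.66 and 6.27 log2 units in control arrays and at 5.98, 6.55 and 6.47 with SLU7 siRNA, a difference of 0.36 ± 0.28. RHOB, which acts in endosome traffic, was between 2.62 and 3.40 log2 units in 5 arrays, below the lower quartile of all clusters, and at 5.82 in SLU7 replicate 3. Its difference of 0.78 ± 0.77 log2 units came from that array and was -0.27 without it. RHOA and RHOC, its relatives with introns, differed by -0.17 and -0.33 log2 units.

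In the RefSeq table, 2 of the measured members lie wholly within the span of a protein-coding gene with introns. CHML lies inside OPN3, whose log2 difference was -0.12 ± 0.43 (SE), and KTI12 inside TXNDC12, at 0.07 ± 0.33. Neither of these larger genes passed, and both overlapped between groups. JUNB overlaps the span of HOOK2, which differed by -0.29 ± 0.45. The spans of TAF7, B3GALT6, IMP3 and FOXE1 overlapped no other gene of that table.

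The split between the arrays ran through these gene groups too. Averaged over control replicate 2 and SLU7 replicate 1, 16 of the 21 SOX, FOX, POU3F and BHLHE22 genes were higher than in the other 4 arrays, by a median of 0.43 log2 units, where 56.4% of all clusters were higher and their median was 0.10. The SOX genes alone were 0.64 higher by their median, with 7 of 8 above 0, while the FOX genes (0.15) and the POU3F genes with BHLHE22 (0.12) lay near all clusters. For the SOX genes, both arrays lay above all other 4 in 5 of the 8, and in 21.5% of all clusters. POU3F2 was 1.03 log2 units higher and SOX21 0.92. The 5 enzyme, ribosome and tRNA genes went the other way by their median of -0.53, with 1 of 5 above 0. RRS1 was at -1.17, PIGM at -0.94, B3GALT6 at -0.53, IMP3 at -0.11 and KTI12 at 0.07. Both arrays lay below all other 4 in 1 of these 5 genes, and in 12.2% of all clusters. Each group holds 1 of these arrays. Over all 37 members the median siRNA difference was -0.03 in the pair and 0.03 in the other 4, and the part of the split in the single results was not tested.

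Split at the median level of clusters, the members lay near other genes on both sides. The 21 members above the median level of clusters had a median log2 difference of 0.04, beside -0.0066 for other genes above it, and the 16 below it had one of -0.01, beside 0.0013. Of all 37, 33 lay above the lower quartile of level, with a median of 0.0087.

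**Figure D3:**
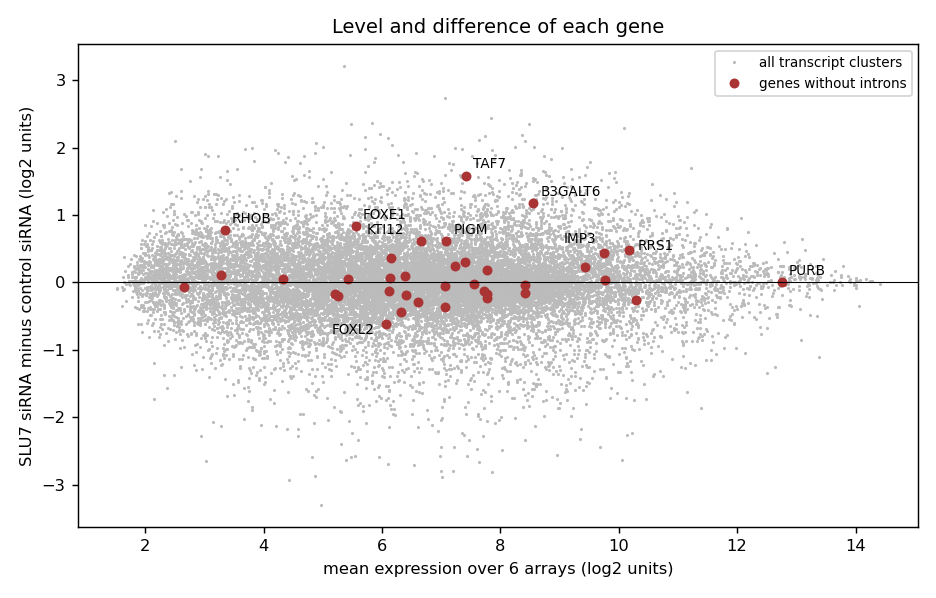
Log2 difference (SLU7 siRNA minus control siRNA, vertical axis) against mean expression over the 6 arrays (log2 units, horizontal axis) for all 18708 transcript clusters (grey) and the 37 measured genes without introns (red). TAF7 at 1.59 and B3GALT6 at 1.18 are the 2 members beyond 1 log2 unit, as are 1292 clusters, and all members lie within the range of the grey points.

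A second list of 50 genes usually annotated with 1 exon, of which 40 were measured, was described in the same way. Of these, 21 were above 0 and 19 below, with a median of 0.03 log2 units, and none passed. The highest difference was that of MOCS3, a sulfur carrier activating enzyme that serves tRNA and the molybdenum cofactor, at 1.07 ± 0.30 (SE) log2 units and a limma adjusted p of 0.157. The lowest was that of IER5L, a relative of IER5, at -0.80 ± 0.29. The C/EBP genes of that list, relatives of CEBPD that also lack introns, differed by -0.0049 log2 units (CEBPA) and -0.19 (CEBPB).

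**Figure D4:**
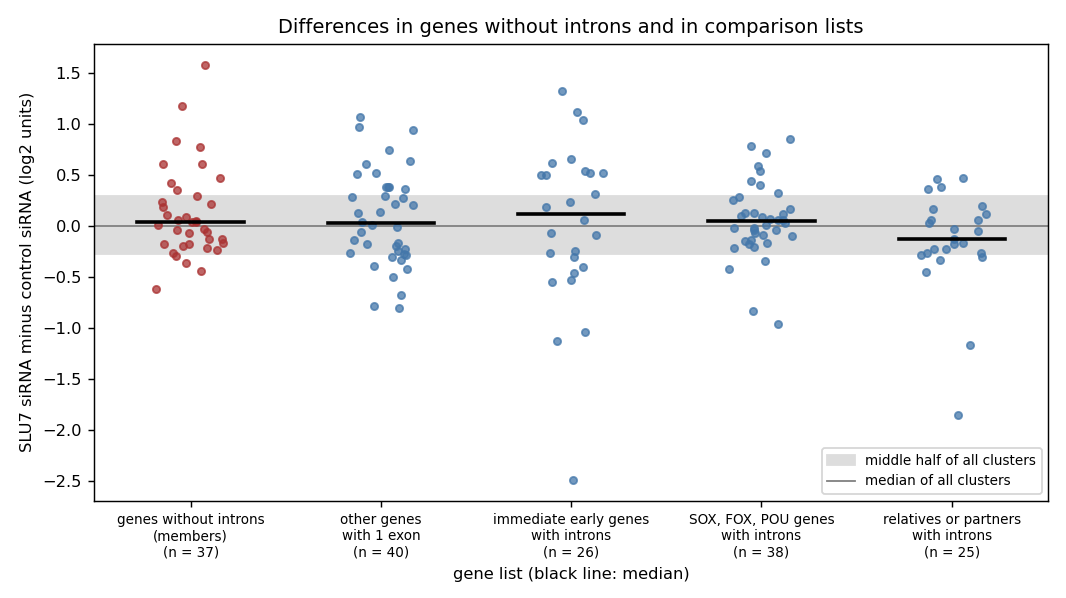
Log2 difference (SLU7 siRNA minus control siRNA, vertical axis) of each measured gene in the 37 genes without introns (red) and in 4 comparison lists (blue), with the median of each list as a black line, and the median and quartiles of all clusters as a grey line and band. The medians are 0.04, 0.03, 0.12, 0.05 and -0.12 from left to right, all within the grey band, and ZFP36 at -2.49 is the lowest point.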

How the data were processed

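Total RNA of 6 samples (3 per group) was measured on Affymetrix Human Exon 1.0 ST arrays. The deposited values are log2 expression, 1 per transcript cluster of the core chip definition, per the labels, and the submitters' processing notes name RMA, which corrects background, normalizes and summarises probes. The genome build is not given in the sources used here. Genes were named from the platform annotation, older symbols being updated through RefSeq (GRCh38.p14, names only). Of 18708 clusters, 16287 had 1 symbol, 674 several and 1747 none.

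The comparison used limma (3.58.1, in R 4.3.3; lmFit and eBayes, no trend, all clusters, Benjamini-Hochberg adjustment at 0.05), and the script was tested on simulated data. The number of arrays limits the precision; the median SE of a difference was 0.312 log2 units. A fold is 2 raised to the log2 difference. The members and lists were chosen with earlier results of these data known. Arrays are given one by one for members whose groups do not overlap, 1 member of each role group (that with the highest mean), the 3 highest and the 3 lowest differences; comparison lists name members that pass or, failing that, the extremes. Alternatives were other normalizations, filters, variance models, weights, blocks and arrays left out.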

Additional observations from a re-analysis of the deposited data

How the results depend on the processing

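The median log2 difference of the 37 members moved by less than the spread between arrays under the 16 alternatives tried and ran from -0.064 to 0.12 when 1 array was left out, so its sign is not settled. The count of members that passed stayed at 0 except without dim clusters (1, TAF7), with an intensity trend and robust shrinkage (1, TAF7), with array weights (2, TAF7 and B3GALT6) and with the array split as a block (2, TAF7 and B3GALT6). The split was chosen from these arrays, and choosing it lowers the residual error. In those 4 settings 324, 441, 575 and 783 clusters passed, where the main analysis called 81, and SLU7 itself passed (adjusted p = 0.0411, 0.033, 0.0269 and 0.043, at differences of -1.51, -1.51, -1.61 and -1.51). Limma called 0 clusters at a threshold of 0.01, in the other 4 arrays alone, and without any 1 array (0 to 0), with 1833 to 2573 clusters at an unadjusted p under 0.05 without 1 array and 2922 in the 4 arrays.

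With the replicate number as a block, limma also called 0 clusters (1845 at an unadjusted p under 0.05) and 0 members. Deviations of same-numbered arrays from their group means correlated at -0.381, -0.314 and 0.141 for replicates 1, 2 and 3. The array split fell on different numbers, control replicate 2 and SLU7 replicate 1. These correlations therefore cannot settle whether same-numbered arrays shared a culture or day.

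No member that changed sign had passed. The sign changed with array weights for SOX12 (-0.17), BHLHE22 (0.00065) and PURB (-0.020), and in the 4 arrays alone for SOX1 (0.012), SOX12 (-0.21), SOX21 (-0.049), FOXD3 (0.056) and POU3F1 (0.0020). With 1 array left out it changed at least once, over the ranges given in log2 units, for BHLHE22 (-0.30 to 0.25), FOXC1 (-0.19 to 0.037), FOXC2 (-0.42 to 0.046), FOXD3 (-0.082 to 0.030), IER2 (-0.12 to 0.18), IER5 (-0.030 to 0.34), JUN (-0.013 to 0.37), POU3F1 (-0.22 to 0.18), POU3F2 (-0.21 to 0.57), POU3F4 (-0.072 to 0.17), PURB (-0.17 to 0.19), RHOB (-0.27 to 1.34), RRS1 (-0.038 to 0.84), SOX1 (-0.68 to 0.27), SOX11 (-0.50 to 0.12), SOX12 (-0.25 to 0.34), SOX14 (-0.090 to 0.39), SOX2 (-0.13 to 0.57), SOX21 (-0.18 to 0.68), SOX3 (-0.53 to 0.26), SOX4 (-0.34 to 0.086). The difference of TAF7 ran from 1.41 to 1.76 and that of B3GALT6 from 0.97 to 1.42. Members whose groups do not overlap numbered 4 to 11 without 1 array and 17 in the 4 arrays alone, where 25.5% to 32% and 46.2% of all clusters did not overlap. Of the comparison lists, the 26 immediate early genes with introns had 2 to 3 passing with an intensity trend, array weights or the split. They had 0 with the replicate block, without any 1 array and in the 4 arrays alone. The SOX, FOX and POU list (38 measured) and the second 1-exon list (40 measured) had 1 each with array weights and with the split. The list of relatives and partners (25 measured) had 1 with the split. With the intensity trend, array weights and the split, 441, 575 and 783 of all 18708 clusters passed. No list was tested against these shares.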

Other observations

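Of the 26 immediate early genes with introns, 5 besides ZFP36 differed by over 1 log2 unit, and they are named here after their values were seen. The orphan nuclear receptors NR4A1, NR4A2 and NR4A3 were higher with SLU7 siRNA by 1.33 ± 0.46, 1.12 ± 0.54 and 1.04 ± 0.27 (SE) log2 units. EGR1, a zinc finger factor induced by growth factors, differed by -1.12 ± 0.40 and IER3 by -1.03 ± 0.25. None of these 5 passed the limma test over all clusters (adjusted p from 0.117 to 0.442), and only NR4A1, NR4A3 and IER3 had groups that did not overlap. Since the 5 were picked for the size of their difference, that count says little. In the whole list of 26, 6 were apart and higher (23.1%) and 3 apart and lower (11.5%). Of all clusters, 9.64% were apart and higher and 9.21% apart and lower. The list was not tested against these shares.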
